A study of Homo sapiens with 2 samples.

Results

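The genes described are those of the mitochondrial ribosomal proteins, in PC-3 cells with and without knockdown of SHISA2. They were chosen by name: every gene whose annotated symbol begins with MRPL or MRPS and a number and that has a probe set annotated to it alone. Of 19775 genes with such a probe set the rule took 77, of which 75 code for proteins, 48 of the large (MRPL) and 27 of the small (MRPS) subunit. The other two symbols were the antisense transcript MRPL20-AS1 and the pseudogene MRPL45P2. MRPL53 and MRPS24 were read only together with a second gene and were therefore not members. PC-3, an established prostate cancer line of human origin, came from a bone metastasis. The series holds 2 arrays of PC-3 RNA: the siCONTROL array came from cells with a control vector expressing short hairpin RNA, and the siSHISA2 array from cells with the vector aimed at SHISA2. Whether the cells were a selected line or a mixed culture and how long after transfection RNA was taken are not stated in the labels. With 1 array per group no difference was tested, and precision is limited by that number.

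Mitochondria make their own proteins on a ribosome of bacterial descent. Its RNAs are encoded in mitochondrial DNA, but all of its proteins are encoded in the nucleus, made in the cytosol and imported. The ribosome makes only core subunits of the respiratory chain and the ATP synthase, so the energy supply by respiration depends on it. Many MRPL and MRPS proteins have counterparts in the bacterial ribosome, while the rest are found only in mitochondria. The letter in the symbol gives the subunit in most cases, although the proteins of MRPS18A and MRPS30 sit in the large subunit.

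Most of these genes were slightly higher in the knockdown array, and none differed by as much as 1.5-fold. All 75 had a signal above the floor of 47.9 (the median of all probe-set signals, to which lower ones were raised), and in 74 both signals were above 387.3, the 75th percentile. The log2 ratio of knockdown over control was above 0 in 57 genes and below 0 in 18, with a median of 0.10 and an SD between genes of 0.16. Of all 12931 measured genes 52.2% were above 0, with a median of 0.01. Among the 4079 other genes of like signal, those with a mean log2 signal between the 10th and 90th percentile of the members, 47.3% were above 0, with a median of -0.01 and an SD of 0.21. The ratio had a Pearson correlation with mean log2 signal of -0.03 across the 75 members, which share the same arrays. By signal, the dimmest 25 members had a median of 0.17, the middle 25 one of 0.08 and the brightest 25 one of 0.07. Against the 200 other genes nearest to each in signal, 57 of the 75 were above the local median, 38 were above the upper quartile and 6 were below the lower quartile.

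The differences of single genes were small. A log2 ratio of at least 0.32 in size was found in 2 of the 75 genes, MRPL36 on the higher and MRPS27 on the lower side, where the share was 25.1% over all measured genes and 10.7% among the genes of like signal. At 1.5-fold the member count was 0, against 8.78% of all measured genes and 1.72% of those of like signal. A log2 ratio above 0.2 was found in 19 members (25.3%) and one below -0.2 in 5 (6.67%). Above 0.2 were 22.2% of all measured genes. Among the genes of like signal the shares above 0.2 and below -0.2 were 10.9% and 16.1%. Technical spread was taken from genes with several probe sets, by subtracting the ratio of the second brightest from that of the brightest and dividing the SD of these differences by the square root of 2. It was 0.155 for the 3088 such genes with the floor at 387.3. Of the members, 33 had a ratio larger in size than that value and 2 a ratio larger than 2 times that value. The first count is 44% of the members, where the share was 52.9% of all measured genes and 38.1% of those of like signal. For the second, the shares were 26.4% and 11.7%. This yardstick leaves out the variation between cultures and arrays.

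**Figure D1:**
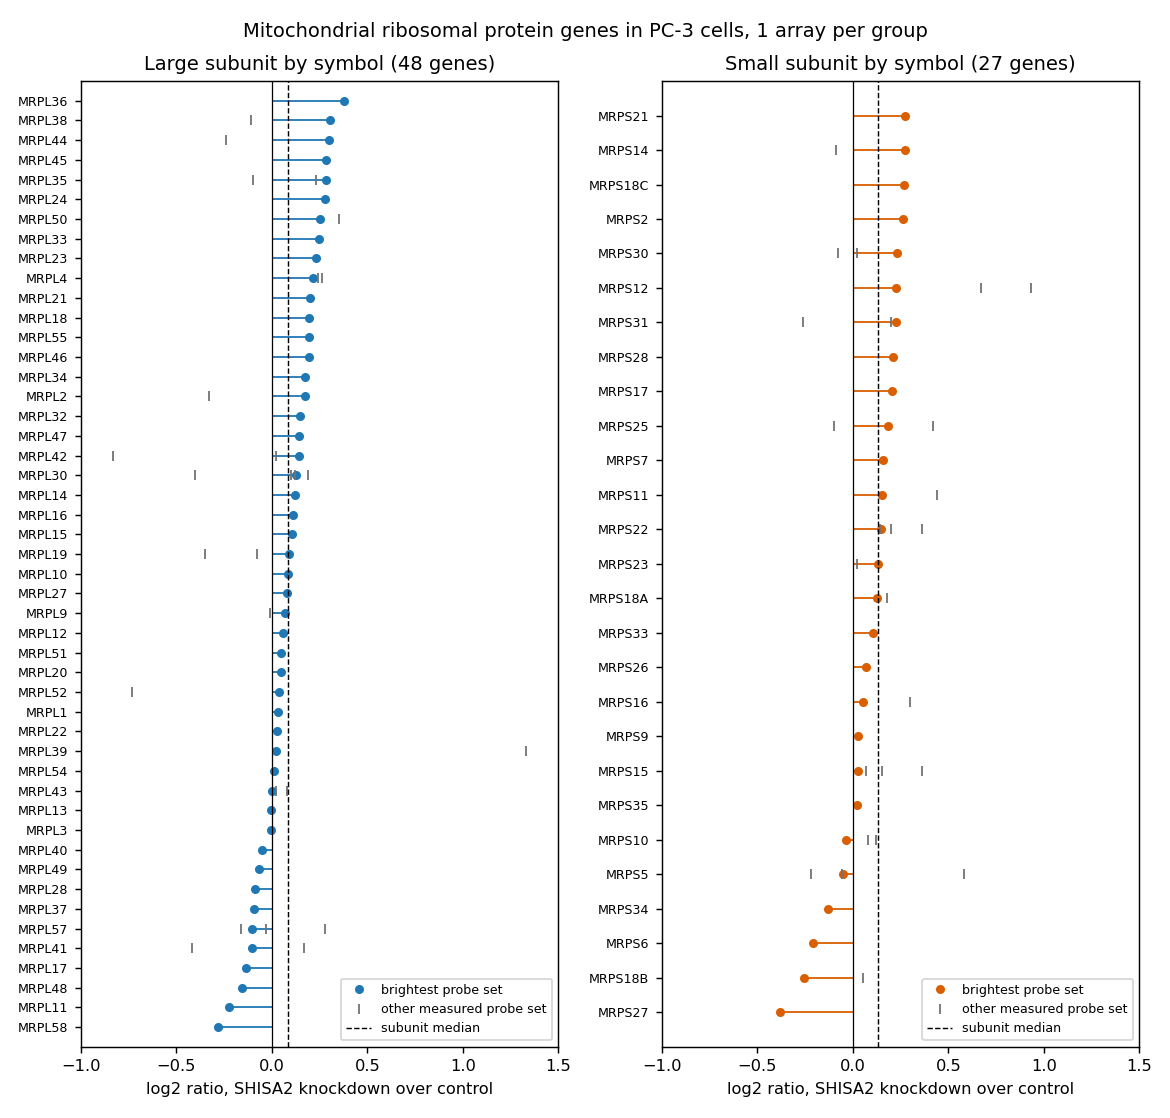
Log2 ratio of SHISA2 knockdown over control for the 48 large and 27 small subunit genes (filled points, brightest probe set; ticks, the gene's other measured probe sets; dashed line, subunit median; 1 array per group). Filled points lie between -0.38 and 0.38, with 57 of 75 to the right of 0, while some ticks of dim probe sets lie much farther out.

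Genes above 0 were in the majority in both subunits. Of the large subunit genes 36 of 48 were above 0, with a median log2 ratio of 0.09 and single ratios from -0.28 to 0.38. Of the small subunit genes 21 of 27 were above 0, with a median of 0.13 and ratios from -0.38 to 0.27. The medians differed by -0.04 (large minus small), and this difference was not tested. With each gene taken as the mean over its measured probe sets, the large subunit had 32 of 48 above 0 and a median of 0.05, and the small subunit 23 of 27 and a median of 0.10. Relative to the local medians of genes of like signal, both subunits had a median of 0.12. With MRPS18A and MRPS30 counted in the large subunit, the medians were 0.10 and 0.13.

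**Figure D2:**
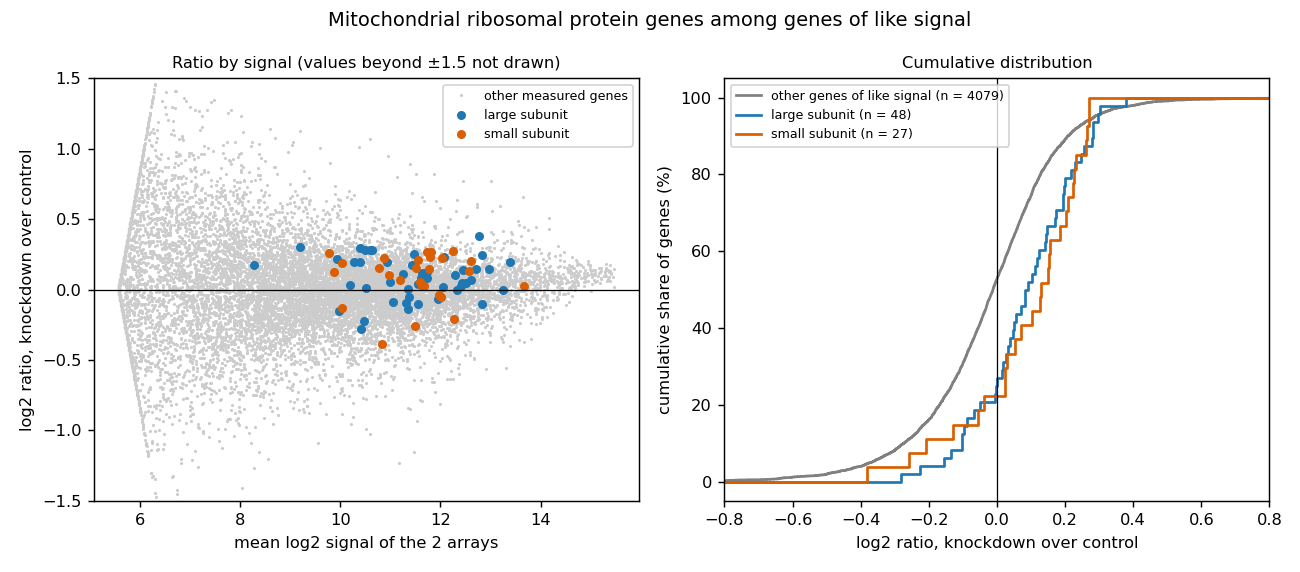
Left, log2 ratio of knockdown over control against the mean log2 signal of the 2 arrays for all measured genes (grey) and the members (coloured by subunit). Right, the cumulative share of genes by log2 ratio, where the curves of both subunits run to the right of the 4079 other genes of like signal, which have a median of -0.01 against 0.09 and 0.13.

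Promoter sequences are shown for the highest and the lowest gene of each subunit, since these are the ends of the range that the values below describe. Each is the 250 bases before the gene's start, 5′ to 3′ on the gene's strand, from RefSeq on GRCh38.p14. Capitals mark matches, on either strand, to GCGCANGCG (the NRF1 motif), CCGGAAG (the motif of ETS factors such as GABP), AAGATGGCG (YY1) and CACGTG (the E-box of MYC), factors known to act on genes of mitochondrial biogenesis or growth.
MRPL36 (chr5:1799838-1800087, minus strand): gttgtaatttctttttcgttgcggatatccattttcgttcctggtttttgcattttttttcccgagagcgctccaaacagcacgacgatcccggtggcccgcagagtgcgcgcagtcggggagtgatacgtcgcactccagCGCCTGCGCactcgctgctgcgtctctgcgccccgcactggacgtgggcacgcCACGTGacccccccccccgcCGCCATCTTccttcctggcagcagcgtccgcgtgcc
MRPS21 (chr1:150293611-150293860, plus strand): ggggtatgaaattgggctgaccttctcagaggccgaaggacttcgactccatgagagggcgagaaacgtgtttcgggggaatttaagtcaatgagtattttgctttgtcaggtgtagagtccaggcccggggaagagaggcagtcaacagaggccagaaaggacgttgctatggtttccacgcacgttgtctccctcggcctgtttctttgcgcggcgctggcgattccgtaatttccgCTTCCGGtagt
MRPL58 (chr17:75012420-75012669, plus strand): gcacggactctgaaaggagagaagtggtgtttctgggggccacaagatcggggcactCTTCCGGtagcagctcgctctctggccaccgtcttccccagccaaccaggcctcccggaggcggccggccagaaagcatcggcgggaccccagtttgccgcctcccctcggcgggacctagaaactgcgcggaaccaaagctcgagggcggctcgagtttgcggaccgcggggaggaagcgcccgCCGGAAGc
MRPS27 (chr5:72320241-72320490, minus strand): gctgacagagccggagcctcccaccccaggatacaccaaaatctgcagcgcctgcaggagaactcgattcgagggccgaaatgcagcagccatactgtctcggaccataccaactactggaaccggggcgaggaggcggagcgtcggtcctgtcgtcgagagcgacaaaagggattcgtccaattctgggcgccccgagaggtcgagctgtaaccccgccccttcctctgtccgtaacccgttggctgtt
MRPL36 holds 1 match each to the NRF1, YY1 and E-box motifs, MRPS21 has 1 ETS match and MRPL58 has 2, and MRPS27 has none in this stretch. No matches overlap here. The ETS matches stand before MRPS21, from the higher end, and MRPL58, from the lower end. A link between motif and ratio was not tested.

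MRPL36, a small protein of the large subunit with a bacterial counterpart, had the highest ratio of all members. It had 1 measured probe set, at 6157 in siCONTROL and 7998 in siSHISA2 cells, a log2 ratio of 0.38 or 1.30-fold, above 98.0% of the 200 genes nearest in signal. At the other end was MRPS27, a small subunit protein with pentatricopeptide repeats that occurs only in mitochondria. It read 2082 in siCONTROL and 1597 in siSHISA2 cells, a ratio of -0.38 or 1.30-fold lower, and 4.0% of its nearest genes were lower still. No other member reached a log2 ratio of 0.32 in size.

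Among large subunit genes, MRPL36 was followed by a group at similar ratios with different roles. MRPL38, of the central protuberance, the crown of the large subunit that faces the small one, read 530.4 in siCONTROL and 654.7 in siSHISA2 cells (0.30). Its other measured probe set, at 51.8 and 7.9 with the siSHISA2 signal raised to the floor, gave -0.11. MRPL44, a protein with a ribonuclease III-like fold, read 1224 and 1503 (0.30), and its other probe set gave -0.24. MRPL45, which lies at the exit of the peptide tunnel and faces the inner membrane, read 1304 and 1586 (0.28). MRPL35 read 1452 and 1766 (0.28, with 0.23 and -0.10 on other probe sets) and MRPL24, also near the tunnel exit, 1398 and 1696 (0.28). MRPL50 read 2595 and 3095 (0.25) and was higher on its other probe set too (0.35), and MRPL33 read 6695 and 7946 (0.25). MRPL38, MRPL44 and MRPL35 were therefore higher on their brightest probe set but not on every one.

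The lower end of the large subunit held fewer genes. MRPL58, a peptidyl-tRNA hydrolase built into the ribosome that helps to release stalled chains, read 1515 in siCONTROL and 1246 in siSHISA2 cells (-0.28). MRPL11, at the base of the stalk that binds translation factors, read 1546 and 1322 (-0.23). MRPL48 (-0.15), MRPL17 (-0.14), MRPL41, MRPL57 and MRPL37 (each -0.10) and MRPL28 (-0.09) came next. The ratios of MRPL41 and MRPL57 varied between probe sets, from -0.42 to 0.17 and from -0.16 to 0.28. The -0.42 of MRPL41 came from a probe set at 64 and 9.7, whose siSHISA2 signal was raised to the floor. Only MRPL58 and MRPL11 in this subunit were below -0.2, while 10 genes were above 0.2.

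By region of the large subunit, all but 1 of the 6 genes of the peptide exit tunnel were above 0, with a median of 0.19. Besides MRPL45 and MRPL24 these were MRPL23 (3973 in siCONTROL and 4657 in siSHISA2 cells, 0.23), MRPL47 (0.14) and MRPL22 (0.03), and MRPL17 was below 0. In the central protuberance 4 of 6 genes were above 0, with a median of 0.14: MRPL38, MRPL18 (10031 and 11488, 0.20), MRPL46 (0.19) and MRPL27 (0.08), with MRPL40 (-0.05) and MRPL48 on the other side. In the stalk MRPL10 read 0.08 and MRPL12, which carries the flexible arms that recruit elongation factors, 0.06, against -0.23 for MRPL11. MRPL3, close to the catalytic centre, read 9739 and 9709 (0.00 after rounding). With 3 to 6 genes each, these regions had an SD of 0.17 each, against 0.15 for the whole subunit. As each region is a part of the subunit, its ratios cannot go beyond the subunit's range of -0.28 to 0.38.

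In the small subunit 9 genes lay above 0.2, within a narrow range. MRPS21 read 4443 in siCONTROL and 5363 in siSHISA2 cells (0.27), MRPS14 3285 and 3961 (0.27, and -0.09 on its other, dim probe set), and MRPS2 799.1 and 957.6 (0.26). MRPS12, the counterpart of the bacterial protein S12 at the decoding site, read 3844 and 4498 (0.23), and its other measured probe sets, at control signals of 150 and 189.1, gave 0.67 and 0.93. MRPS31 read 1743 and 2036 (0.22, with 0.20 on a second bright probe set and -0.26 on one near the floor). MRPS28 had a ratio of 0.21, MRPS17 one of 0.20 and MRPS30 one of 0.23. Of these genes MRPS30, MRPS31 and MRPS14 had a probe set of the opposite sign.

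Below 0 in the small subunit were 6 genes. MRPS6 read 5290 in siCONTROL and 4581 in siSHISA2 cells (-0.21), and MRPS34 1101 and 1007 (-0.13). MRPS5 read 4187 and 4032 (-0.05) and MRPS10 4089 and 3986 (-0.04), in addition to MRPS27 and MRPS18B. The other measured probe sets of MRPS10 gave 0.08, at 2524.5 and 2667.9, and 0.12, at 2110.1 and 2293.3. The direction of MRPS10 therefore depended on the probe set. MRPS5 read -0.06 on a second bright probe set, at 1368.2 and 1313.6. Its dim probe sets differed in sign, with 0.58 at 128.7 and 192.8. The other gave -0.22 at 55.6 and 41.8, with the siSHISA2 signal raised to the floor. MRPS15, at 12905 and 13120, was level (0.02), as were MRPS35 and MRPS9 (0.02 and 0.03).

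The 3 genes of the S18 family, whose proteins descend from 1 bacterial protein and take different places in the ribosome, went different ways. MRPS18C read 3099 in siCONTROL and 3725 in siSHISA2 cells (0.27). MRPS18A, of the large subunit, read 905.3 and 988.7 (0.13), and 0.18 on its other probe set. MRPS18B read 3166 and 2649 (-0.26), but its other measured probe set gave 0.05 at 1550 and 1605. The direction of MRPS18B therefore depended on the probe set.

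Genes with a bacterial counterpart were above 0 in 38 of 47 cases, with a median log2 ratio of 0.12. Of the genes found only in mitochondria 19 of 28 were above 0, with a median of 0.04. After median centring the counts were 38 of 47 and 15 of 28. The shares above 0 were then 48.5% of all measured genes and 42.0% of those of like signal. After quantile normalization and after loess the counts were 37 of 47 and 19 of 28, against 50.2% of all measured genes. In all, 5 of the 75 members changed sign under at least 1 of the scalings tried. With subunits by place, 26 of 31 large subunit genes with a bacterial counterpart were above 0 as deposited (median 0.12). Of those found only in mitochondria it was 12 of 19 (median 0.02). In the small subunit the counts were 12 of 16 (median 0.15) and 7 of 9 (median 0.10), so the shares differed mainly in the large subunit. The difference between the groups was not tested in either subunit or over both.

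Some genes were read by several probe sets. Of the 126 measured probe sets of the members 89 were above 0, where 52.1% of all measured single-gene probe sets were. In the 29 members with several measured probe sets, 11 were above 0 on all of them, none was below 0 on all of them, and 18 had both signs. Such counts were not taken over all genes, so no background stands beside them. The 2 brightest probe sets had the same sign in 16 of these 29 genes, and in 12 of 18 with the floor at 387.3. Over all genes with several measured probe sets this held for 3880 of 6428 and 2019 of 3088, so the members' agreement was near that of all genes. Large differences came mostly from dim probe sets: MRPL39 read 0.02 at 4216 and 4272, but 1.33 on a probe set at 45 in siCONTROL and 120.8 in siSHISA2 cells, and MRPL42 read 0.14 at 5303 and 5842, but -0.83 at 260.2 and 145.9. For the 1.33 of MRPL39 the siCONTROL signal was raised to the floor. MRPL52 was 0.04 on its brightest probe set and -0.73 on one near the floor.

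The proteins of the same ribosome that carry other names were measured in 4 cases. DAP3, a GTP-binding protein of the small subunit, read 5960 in siCONTROL and 6436 in siSHISA2 cells (0.11), CHCHD1 7550 and 9123 (0.27), PTCD3 1273 and 1286 (0.01) and GADD45GIP1, of the large subunit, 1878 and 1640 (-0.20). Their range lay within that of the members. The probe set shared by MRPS24 and its read-through transcript read 8747 and 9927 (0.18), and the one shared by MRPL53 and CCDC142 was level at 4197 and 4221 (0.01). MRPL20-AS1 read 358.2 and 455.4 (0.35) while MRPL20 itself read 0.05, and neither signal of MRPL45P2 reached the floor.

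In other groups of mitochondrial gene expression the medians were between 0.07 and 0.10, and that of tRNA charging was -0.02. Translation factors were above 0 in 14 of 18 cases (median 0.10), from -0.15 for MTRF1, a release factor, to 0.25 for TSFM, the exchange factor of the elongation factor TUFM. Assembly factors of the mitochondrial ribosome were above 0 in 18 of 26 cases (median 0.07), with the rRNA methyltransferase MRM3 (0.24) at one end and the GTPase MTG1 (-0.29) at the other. Genes that keep and transcribe mitochondrial DNA or process its RNA were above 0 in 14 of 21 cases (median 0.09), with MTERF1 at 0.54 from dim signals of 336.9 and 489.8 and the transcription factor TFB2M at -0.23. Enzymes that charge mitochondrial tRNAs were above 0 in 8 of 18 cases (median -0.02), from YARS2 (-0.23) to WARS2 (0.41, at 334.6 and 444.9).

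Genes of the respiratory chain, whose core partners this ribosome makes, were shifted in the same direction as deposited. In complex I 26 of 33 nuclear genes were above 0 (median 0.07), from NDUFB7 (-0.24) to NDUFA7 (0.31). In the other complexes and the ATP synthase 30 of 34 were above 0 (median 0.09), with UQCR11 of complex III at 0.38. Protein import genes were above 0 in 22 of 27 cases (median 0.13), among them TIMM8A (0.70, at dim signals of 285.6 and 462.6) and TIMM10 (0.41). In the citric acid cycle 9 of 11 were above 0 (median 0.11), including citrate synthase, CS, at 3941 in siCONTROL and 4793 in siSHISA2 cells (0.28). None of these lists was tested, and each count stands beside the 52.2% of all measured genes above 0. That share is not matched for signal. Relative to the local medians of genes of like signal, 23 of 33 complex I genes were higher, with a median difference of 0.04. For the other complexes and the ATP synthase it was 25 of 34 and 0.04, where the local medians themselves had a median of 0.06. For protein import it was 23 of 27 and 0.12, and for the citric acid cycle 9 of 11 and 0.12.

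Among regulators of mitochondrial biogenesis 5 of 8 were above 0, with a median of 0.03. ESRRA, a nuclear receptor that drives respiratory genes, read 697.5 in siCONTROL and 939.9 in siSHISA2 cells (0.43). NRF1 (0.05), YY1 (0.02), GABPA (-0.13) and GABPB1 (-0.09), whose motifs were searched above, had small ratios. MYC, a growth regulator that binds the E-box, read 5206 and 6311 (0.28). PPARGC1A, the coactivator PGC-1 alpha, was under the floor in both arrays.

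For the cytosolic ribosome the shift depended on the scaling. Its 53 measured protein genes were all above 0 as deposited, with a median of 0.10 and an SD of 0.05, and 51 of 53 after median centring (median 0.08), but 36 of 53 were above 0 after quantile normalization (median 0.02) and 38 of 53 after a loess trend was removed (median 0.02). As deposited, 35 of the 53 were above the local medians of genes of like signal, with a median difference of 0.01. Those local medians themselves had a median of 0.09. Of the members 57 of 75 were above 0 as deposited, 53 after median centring, and 56 after quantile normalization and after loess, where the medians were 0.11 and 0.12. The complex I list had medians of 0.04 after both of these scalings and the list of the other complexes 0.05 and 0.04. Cytosolic ribosome assembly genes were above 0 in 27 of 39 cases (median 0.07), and RRP1 (0.58) and RRP9 (0.54) led the list at dim signals.

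**Figure D3:**
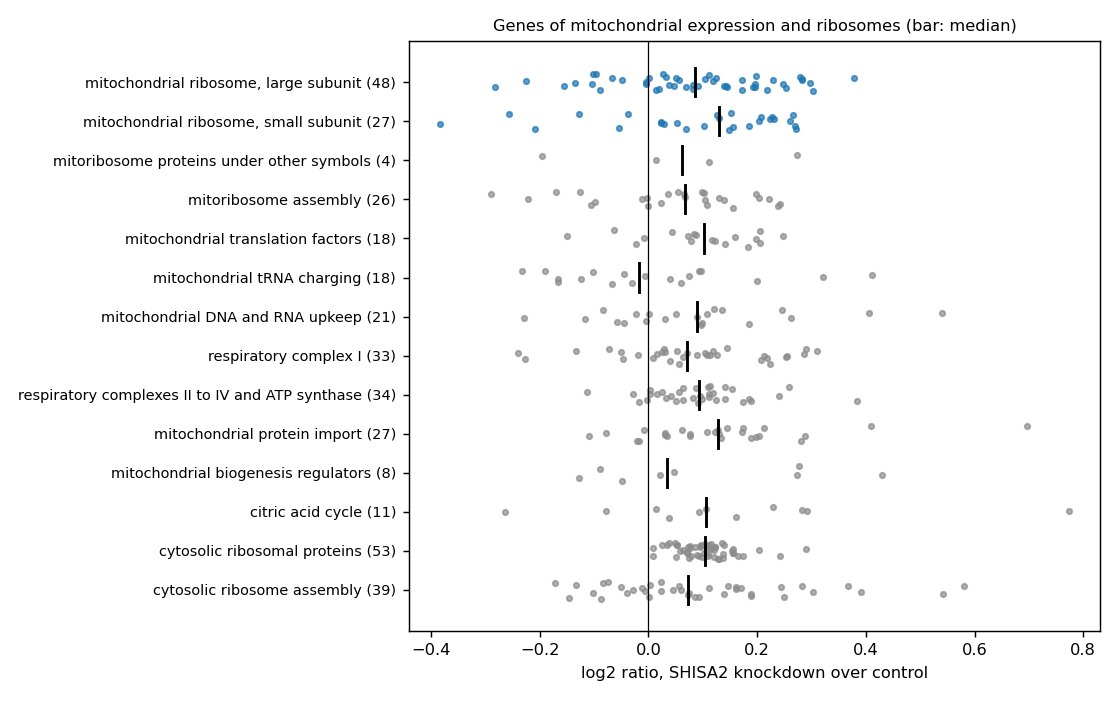
Log2 ratio of knockdown over control for the members by subunit (blue) and for 12 related gene lists (grey), as deposited, with the number of measured genes in brackets and the median as a bar. Medians of 11 lists lie between 0.03 and 0.13, tRNA charging is at -0.02, and the cytosolic ribosomal proteins are the tightest list.

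**Figure D4:**
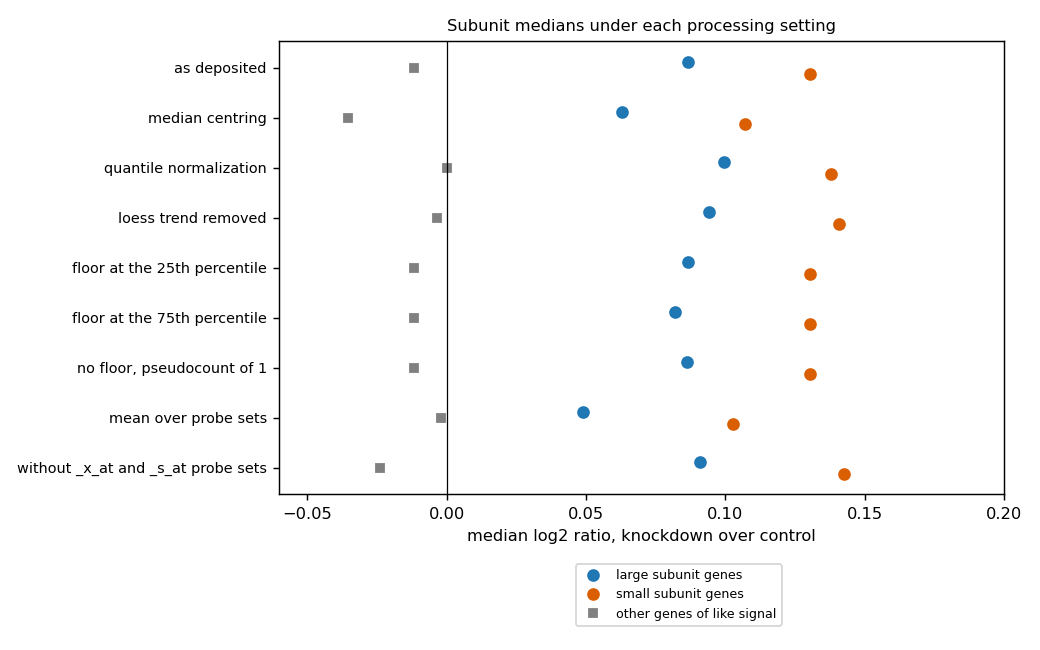
Median log2 ratio of the large and small subunit genes and of the other genes of like signal under each processing setting. Both subunit medians stay above 0 and above the median of the genes of like signal in every setting shown.

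Promoter motifs, which the choice by name did not use, were each found in a minority of the members. RefSeq promoters were at hand for 67 of the 75 members and for 15843 protein-coding genes in all, each as a window of 250 bases before to 50 after the start. The ETS motif CCGGAAG was found in 28 members (41.8%) and in 14.2% of all promoters, and the YY1 motif AAGATGGCG in 12 members (17.9%) and in 2.74% of all. The NRF1 motif was found in 13 members (19.4% against 11.0%) and the E-box in 6 (8.96% against 8.88%). The median log2 ratio was 0.08 in members with the ETS motif and 0.12 in the 39 without it. With the YY1 motif it was 0.14 and in the 55 without it 0.07. With the E-box it was 0.15 and in the 61 without it 0.09. With the NRF1 motif it was 0.10 and in the 54 without it 0.09. These shares and medians were not tested.

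Some members have a divergent neighbour, a protein-coding gene that starts on the other strand within 500 bases upstream. This held for 13 of the 67 members (19.4%) and for 9.18% of all protein-coding genes in the promoter table. MRPL46 and MRPS11, 1 from each subunit, are such a pair, at 0.19 and 0.15. MRPS27 and PTCD2, a mitochondrial pentatricopeptide repeat gene, were both lower: PTCD2 read 955.4 in siCONTROL and 761.9 in siSHISA2 cells (-0.33). MRPS18C and the DNA helicase gene HELQ were both higher (0.40 for HELQ, at 515.8 and 680.9). MRPL50 and ZNF189 went opposite ways, at 0.25 and -0.30, and so did MRPL49 (-0.07) and FAU (0.16). Of the 12 measured partners, which include MRPS11 and MRPL46 themselves, 7 were above 0, near the 52.2% of all measured genes.

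The targeted gene and the cell type were checked in the same arrays. SHISA2 read 3536 in siCONTROL and 1506 in siSHISA2 cells, 42.6% of the control signal. The epithelial keratins KRT8 and KRT18 and the PC-3 markers CAV1, CD44 and VIM were bright in both arrays, all with ratios below 0 (-0.37 to -0.06), whereas the leukocyte marker PTPRC, the endothelial VWF, the stromal LUM and the neuroendocrine CHGA and SYP were under the floor in both. KLK3, an androgen-responsive gene listed as low or absent in PC-3, read 242.3 and 251.0. KLK2, of the same list, passed the floor only in the siSHISA2 array, at 20.6 and 71.3, and TMPRSS2 in neither. Of the 9 markers of other cell types 4 passed the floor: COL1A1, a collagen also made by stromal cells, at 787.2 and 577.0, PECAM1 at 104.6 and 121.7, and CD3E and DCN only in the siSHISA2 array, at 57.3 and 53.3.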

How the data were processed

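RNA of 2 PC-3 samples was hybridised to 1 array each. The authors deposited linear probe-set intensities. Per the submitters' processing notes they come from MAS5, with no version named. Per the labels' protocols, biotin-labelled RNA was prepared from total RNA with a 3' in vitro transcription kit. Median intensities were 45.6 (siCONTROL) and 50.3 (siSHISA2). Of 54675 probe sets 62 were controls. GEO's platform annotation gave 41097 probe sets 1 gene symbol and 1801 several. Identifiers of all 75 members matched RefSeq (GRCh38.p14) under the same symbol.

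Signals under 47.9 were raised to it, the measured probe set of highest mean log2 signal stood for its gene, and log2 ratios were taken as knockdown over control. With 1 array per group there are no residual degrees of freedom and no p-value was computed. Alternatives were median centring, quantile normalization, loess (span 0.3), floors at the 25th and 75th percentiles (11.3 and 387.3), a pseudocount of 1 without a floor, means over probe sets, leaving out probe sets that can share probes (_x_at, _s_at), subunits by place, and thresholds of 2-fold and of a log2 ratio of 0.32. Members and lists were chosen with earlier results of these data known. Named genes were the 8 highest and 8 lowest ratios per subunit, the 4 with the highest and 4 with the lowest signals, genes whose probe sets differed by 0.5 or more, the S18 family, MRPS30, genes of 3 regions of the large subunit, and the ends of each related list, of which some are given here. Motifs and neighbours were chosen after the ratios were seen. The procedure was tested on simulated data. Python 3.11.15 with pandas 2.3.3, numpy 2.4.6 and statsmodels 0.14.6 was used.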

Additional observations from a re-analysis of the deposited data

How the results depend on the processing

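The medians of all members, of the large and of the small subunit stayed above 0, and the difference between the subunits stayed below 0, under each alternative run. The median of all members ranged from 0.08 with means over probe sets and with median centring to 0.12 after loess. With means over probe sets the large subunit median was 0.05, against 0.09 as deposited. The share of members above 0 ranged from 70.7% to 76.0%. The medians each moved by less than the probe-set spread of 0.286 divided by the square root of the number of genes. The difference between the subunits moved by less than 0.069. That limit is the spread times the square root of the sum of the reciprocals of the 2 gene numbers. The share stayed within its Wilson 95% interval of 65.2% to 84.2%, which covers the number of genes only. The spread of 0.286 came from all genes with several measured probe sets, dim ones included. With the floor at 387.3, above which both signals of 74 of the 75 members lay, it was 0.155. The narrower limits from that value were not applied, so the limits used are wide for genes as bright as the members. Both kinds of limit treat genes as independent, although all were read on the same arrays. They therefore do not show that the medians were unaffected by the processing. The count of members at least 1.5-fold apart, 0 as deposited, was 2 with means over probe sets (MRPL39 and MRPS12) and 2 without probe sets that can share probes (MRPL39 and MRPL42), in each case from dim probe sets. It was 2 at a threshold of 0.32 in log2 ratio and 0 at 2-fold. Of 10 single genes run under these settings after their values were seen, none changed sign, but with means over probe sets MRPL44 went from 0.30 to 0.03, MRPL38 from 0.30 to 0.10 and MRPS18B from -0.26 to -0.10. MRPL36, MRPS21, MRPS18C, MRPL11 and MRPL44 had no value once shared probe sets were left out. Without probe sets that can share probes 41 members were left, of which 29 were above 0, with a median of 0.10. As deposited, the 45 members read by an _x_at or _s_at probe set had a median of 0.13, with 37 above 0. The 30 members read by another kind had a median of 0.06, with 20 above 0. This difference was not tested. No paired analysis was possible because each group has 1 array. Signal was not the limit for 74 of the 75 members, and variation between cultures was not measured.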
